A study of Mus musculus with 6 samples.

Results

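The 9 genes of the complement system followed here were *C1ra*, *C1s1*, *C4b*, *C2*, *C3*, *Cfb*, *Cfi*, *Serping1* and *Cd55*. They were taken by symbol from the expression files by a rule that sets no expression threshold, though with earlier results of these data known, and were 9 of the 55367 gene symbols listed for each library. All 9 were found in all 6 libraries. Of these, 8 reached the level set for testing, an FPKM (fragments scaled to exon length and to the mapped reads of the library) of at least 1 in at least 2 libraries. *Cfb* did not, and its values are given without a place in the counts.

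RNA was sequenced from kidney cells that bind *Dolichos biflorus* agglutinin (DBA), a lectin used to collect collecting duct epithelium, at the time labelled Day115. The 3 groups were WT mice given saline, ADPKD mice (genotype Pkd1-/-) given saline, and ADPKD mice of the same genotype given MMPP (ADPKD+MMPP), with 2 libraries each. MMPP is an ultra-small melanin-like nanoparticle that carries chelated manganese and polyethylene glycol, and was injected intravenously. In the mutant mice, floxed *Pkd1* was deleted by a tamoxifen-inducible Cre (Cre/Esr1) rather than by a Cre of the collecting duct alone, and the sources used here do not say whether WT mice received tamoxifen. The labels describe the libraries both as DBA-positive cells and, in the same protocol, as RNA of entire kidneys. They do not say that the 2 libraries of a group came from separate mice, so p-values measure the spread between these libraries, which may be technical.

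Complement is a chain of plasma and cell-surface proteins that marks microbes, immune complexes and damaged cells. The classical pathway starts when C1q, carrying the proteases C1r and C1s, binds a target, after which C1s cuts C4 and C2 to form an enzyme that cuts C3. The alternative pathway forms a second such enzyme from C3b and factor B. C1 inhibitor (*Serping1*), factor I (*Cfi*) and decay-accelerating factor (*Cd55*) hold these steps in check in plasma or on the cell surface. Most plasma complement is made in the liver, but kidney tubule cells and macrophages also transcribe complement genes, and local C3 is known from cystic kidneys.

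The WT and ADPKD libraries held between 30.6 and 33.1 M mapped reads and those of ADPKD+MMPP held 10.9 and 11.8 M, as recovered from the steps between FPKM values. Odd read numbers made up 36.5% to 38.1% of low values in the first 4 libraries but only 7.52% and 8.15% after MMPP. These differences in depth and read numbers cannot be told apart from MMPP treatment. *Pkd1* stood at 17.7 and 17.2 FPKM in WT, 7.64 and 8.91 in ADPKD and 4.34 and 3.99 in ADPKD+MMPP, read over the whole gene model and not the deleted exons alone, and was called lower in ADPKD against WT (adjusted p = 0.00566 in limma). Of 10 principal cell markers (collecting duct), 9 were above the test level and *Aqp2* was the most abundant, but markers of other cell types were present too. Summed macrophage markers went from 236 to 310.0 FPKM in WT to 946 to 1203 in ADPKD and 1100 to 1102 in ADPKD+MMPP, with *Lyz2* and *Cd74* the most abundant. In ADPKD+MMPP against ADPKD 7 of the 14 were called lower and 2 higher, where 43.0% of all tested genes were called lower and 27.9% higher. Of the 14, 8 had under 45% of their exon bases in exactly 1 annotated transcript. Among tested protein-coding genes of that structure, 71.7% were called lower. Fibroblast and pericyte markers summed to 112 to 139, 194 to 216 and 254 to 258, and proximal tubule markers to 565 to 774, 1410 to 1968 and 21556 to 22735. Hepatocyte markers summed to at most 6.37 FPKM in any WT or ADPKD library, and to 52.9 and 57.3 after MMPP.

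The promoters of *C3* and *Cd55* are shown because they belong to the pathway component (not regulator) with the highest mean level of these 9 genes in ADPKD and to the only one of the 8 tested genes called lower in ADPKD. RefSeq promoter entries (GRCm38.p6) were held for 4 of the 9 genes, the others being *C1s1* and *C1ra*. The 250 bases before the start lie at chr17:57228137-57228386 for *C3* and at chr1:130462745-130462994 for *Cd55*, both read 5′ to 3′ on the minus strand. Capitals mark matches on either strand to 7 motifs: an NF-kB type (GGG and CC with any 5 bases between), a C/EBP type (TTNNGNAA), the interferon-gamma site (TTCNNNGAA), the cAMP response element (TGACGTCA), its half-site (TGACG), AP-1 (TGANTCA) and the TATA box (TATAAA).
C3: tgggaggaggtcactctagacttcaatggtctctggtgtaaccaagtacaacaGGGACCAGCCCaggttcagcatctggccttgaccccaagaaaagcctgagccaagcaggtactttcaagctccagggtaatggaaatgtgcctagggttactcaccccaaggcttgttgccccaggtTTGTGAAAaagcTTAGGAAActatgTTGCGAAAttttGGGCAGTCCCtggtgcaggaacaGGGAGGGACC
Cd55: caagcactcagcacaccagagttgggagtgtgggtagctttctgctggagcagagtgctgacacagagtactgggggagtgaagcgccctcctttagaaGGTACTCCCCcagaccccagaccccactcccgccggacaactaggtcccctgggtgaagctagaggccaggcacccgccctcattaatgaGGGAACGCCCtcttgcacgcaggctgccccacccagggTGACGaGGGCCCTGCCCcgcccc
In *C3*, C/EBP type matches began at -70, -58 and -45 from the start, and NF-kB type matches at -197, -196, -33 and -10, the first pair overlapping. In *Cd55*, NF-kB type matches began at -151, -61, -17 and -16, the last pair overlapping, and a cAMP response half-site began at -23. Such matches were common: of 32851 promoter windows of this length, 45.8% held the NF-kB type, 36.8% the C/EBP type and 17.8% the half-site, while the interferon-gamma site (7.02%), AP-1 (6.75%) and the TATA box (12.4%) matched in neither promoter. The full cAMP response element, present in 1.55% of windows, was also absent from these letters.

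The first comparison asked how complement transcripts differed between cystic and normal kidney cells. In ADPKD against WT, *C4b*, *C3*, *Cfi*, *Serping1* and *C2* rose, *Cd55* fell, and neither *C1ra* nor *C1s1* passed the test. Thus 5 of the 8 tested genes were higher and 1 lower, where a call was a fold change of at least 1.5 with unadjusted P under 0.05 in limma on log2(FPKM + 1). Among all 14862 tested genes, 26.7% were called, 14.2% higher and 12.5% lower. On the log2 scale the median change of the 8 genes was 1.59, against 0.03 over all tested genes. *C4b* and *C2* were under 1 FPKM in both WT libraries, and *Cfi* reached 1 FPKM in only 1 of them. These genes could thus be tested only because other groups stood higher. Their calls against WT lend the counts no weight, and they also enter the median. In these bulk libraries, fewer cells of a type and less RNA per cell cannot be told apart. Of 14 macrophage markers, 13 were also called higher in ADPKD and 1 lower, and of 10 fibroblast and pericyte markers 7 were higher and 1 lower. Among these markers, 2 of macrophages and 5 of fibroblasts and pericytes were under 1 FPKM in both WT libraries, with the same limit. Other lists went lower in ADPKD: 9 of 10 endothelial, 6 of 6 podocyte, 9 of 9 intercalated cell, and 5 of 7 thick limb and distal tubule markers. Of these, 1 endothelial marker was higher. Of 9 tested principal cell markers 1 was called higher and none lower, and of 14 proximal tubule markers 4 were higher and 1 lower. The part of these cell types in the complement results was not tested.

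*C1ra* and *C1s1* encode the protease subunits of C1. *C1ra* stood at 11.9 and 12.1 FPKM in WT and at 16.3 and 12.1 in ADPKD, so that 1 ADPKD library sat at the WT level. Its log2 fold change was 0.20 (95% interval -0.20 to 0.61; adjusted p = 0.391 in limma). *C1s1* stood at 34.9 and 35.1 FPKM in WT and at 24.8 and 28.9 in ADPKD. Both ADPKD libraries were lower, but the log2 fold change of -0.38 did not pass (95% interval -0.79 to 0.04; adjusted p = 0.151 in limma). The level of *C1s1* was 2.92 and 2.90 times that of *C1ra* in WT, and 1.52 and 2.39 times in ADPKD. In WT, *C1s1* was the most abundant of the 9 transcripts and alone made up 38.9% and 31.8% of their summed FPKM.

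*C4b*, which encodes C4, was close to silent in WT, at 0.178 and 0.136 FPKM from 31 and 24 reads. It reached 13.3 and 11.0 FPKM in ADPKD, from 2499 and 2000 reads. The group means were 0.157 ± 0.0296 and 12.1 ± 1.64 (SD, n = 2), a 77.1-fold difference, and every ADPKD value lay far above every WT value. On the log2(FPKM + 1) scale, which understates changes of low genes, the difference was 3.50 (SE 0.13; adjusted p = 0.000831 in limma). *C2*, the partner that C4b binds to form the classical C3-cutting enzyme, stood at 0.211 and 0.234 FPKM in WT and 2.84 and 1.90 in ADPKD. Its mean was 10.7 times as high, with a log2 fold change of 1.45 (SE 0.16; adjusted p = 0.00453 in limma). *C4b* passed the filter only through the ADPKD and ADPKD+MMPP libraries, and *C2* only through the ADPKD libraries. Genes with these patterns had to differ to be tested. Of the exon bases of *C2*, 46.9% overlap other genes.

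*C3*, the protein on which all pathways meet, stood at 5.30 and 19.3 FPKM in WT and at 89.7 and 59.7 in ADPKD. The groups did not overlap, although the WT libraries themselves lay 3.64-fold apart, the widest spread of a tested member within WT. Means were 12.3 ± 9.89 and 74.7 ± 21.2 FPKM (SD, n = 2), and the log2 fold change was 2.71 (SE 0.54; adjusted p = 0.0185 in limma). Among the 14862 tested genes, *C3* ranked 7275 and 2613 by level in the WT libraries and 525 and 789 in ADPKD. *Cfb*, the factor B of the alternative pathway, stood at 0.359 and 0.446 FPKM in WT and at 2.12 and 0.442 in ADPKD. Only 1 ADPKD library, with 198 reads against 40 in the other, was above the WT level. Without the filter on low values its log2 fold change was 0.60 (adjusted p = 0.454 in limma). As much as 79.5% of its exon bases overlap *Gm20547*, a gene model that spans *C2* and *Cfb* and was listed at 0 in all 6 libraries.

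The regulators split. *Cfi*, the protease that inactivates C3b and C4b, stood at 0.766 and 1.12 FPKM in WT and at 13.2 and 8.99 in ADPKD, an 11.8-fold difference between means. Its log2 fold change was 2.62 (SE 0.21, adjusted p = 0.00308 in limma), and both ADPKD libraries were far above WT. With only 1 WT library at 1 FPKM or more, *Cfi* passed the filter only with the help of the other groups. *Serping1*, the inhibitor of C1r and C1s, stood at 27.3 and 30.2 FPKM in WT and at 81.8 and 117 in ADPKD. This was the most abundant of the 9 transcripts in ADPKD replicate 2 and second to *C3* in replicate 1. Its log2 fold change was 1.73 (SE 0.19; adjusted p = 0.00457 in limma). *Cd55*, which dissociates C3-cutting enzymes on the cell's own membrane, went the other way, from 8.69 and 11.9 FPKM in WT to 5.18 and 4.67 in ADPKD. The log2 fold change was -0.91 (SE 0.20; adjusted p = 0.0226 in limma), and the groups did not overlap. All 6 calls kept their direction in each alternative analysis that tested them, *C2* being untested at a filter of 5 FPKM, and the fall of *Cd55* was not called at a fold of 2.

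**Figure D1:**
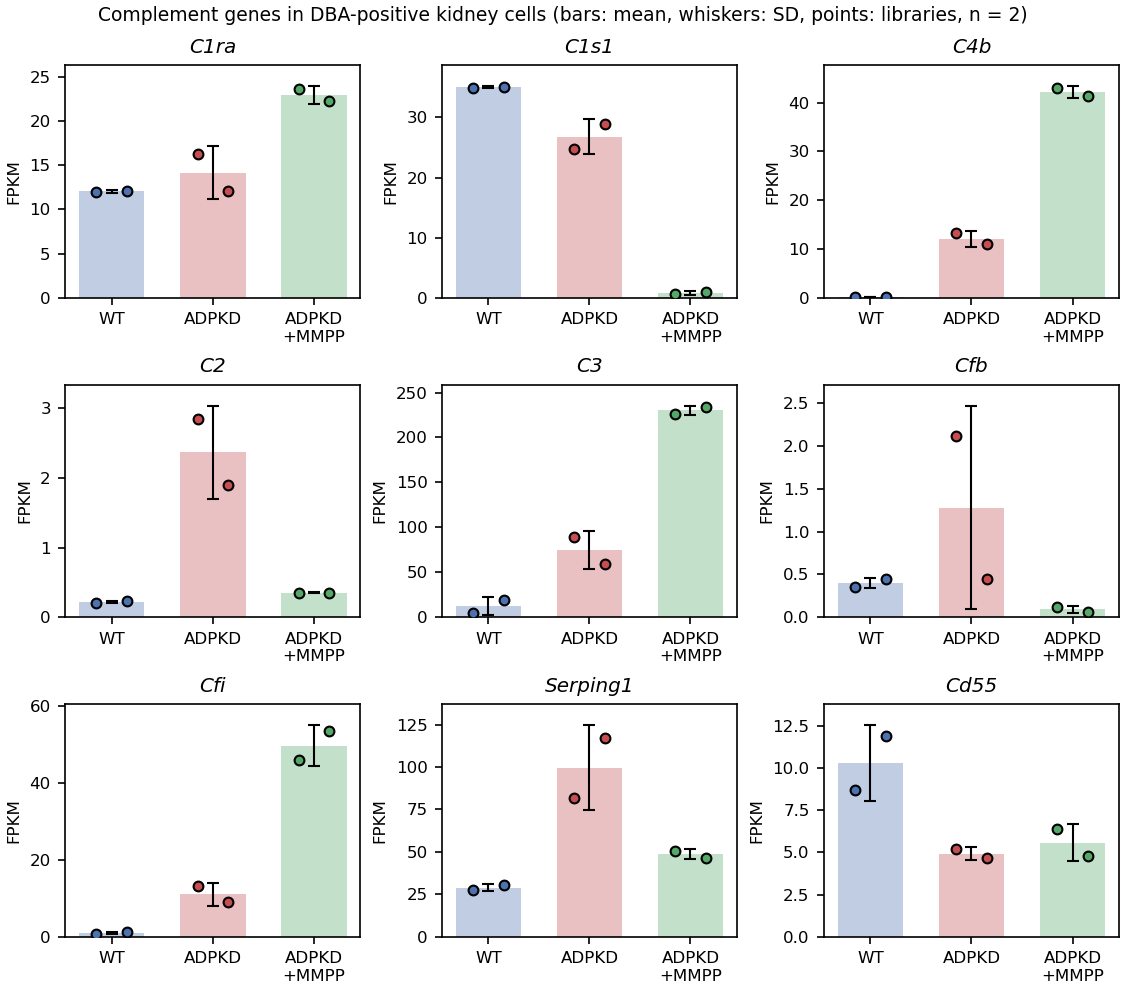
FPKM (linear axis from 0) of the 9 complement genes in each library of the 3 groups, with bars for the group mean and whiskers for the SD of 2 libraries. *C4b*, *C3* and *Cfi* step up from WT to ADPKD and again to ADPKD+MMPP, *C2* is high in ADPKD alone, and *C1s1* is near 0 in both ADPKD+MMPP libraries (0.568 and 1.03 FPKM).

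The second comparison asked how MMPP changed these transcripts in ADPKD mice. In ADPKD+MMPP against ADPKD, *C3*, *C4b*, *Cfi* and *C1ra* were called higher, *C1s1*, *C2* and *Serping1* lower, and *Cd55* did not pass. These 7 of 8 calls stand against 70.9% of all tested genes called in this comparison, 27.9% higher and 43.0% lower. The median gene fell by 0.36 on the log2 scale, and the median of the 8 members was 0.41. The calls lined up with the gene models. *C3*, *C4b*, *Cfi* and *C1ra* had 70.4%, 79.0%, 77.0% and 100% of their exon bases in exactly 1 annotated transcript, whereas *C1s1*, *C2*, *Serping1* and *Cd55* had 5.94%, 24.3%, 38.5% and 42.5%.

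A like split was present among all genes. Of 3921 tested protein-coding genes with a share of at least 70%, 64.2% were called higher and 7.83% lower after MMPP, around a median of 0.93 on the log2 scale. Of 5061 with a share under 45%, 6.07% were called higher and 71.7% lower, with a median of -1.29. In ADPKD against WT the medians of these classes were 0.06 and -0.00. Both limits were chosen after the members' shares were seen. To set members beside genes of like structure, each library was also centred on its median within 20 bins of this share, for protein-coding genes only. Each result of a member in ADPKD+MMPP against ADPKD is given with that centred value.

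**Figure D2:**
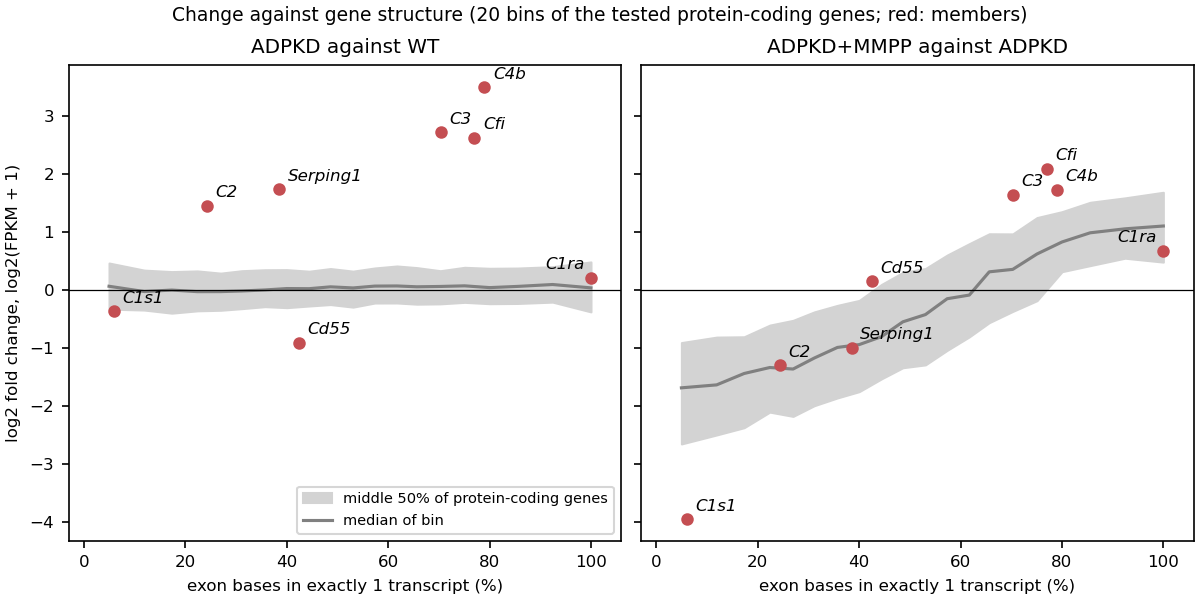
Log2 fold change (log2(FPKM + 1) scale) of the 8 tested complement genes (red) against the percent of exon bases in exactly 1 annotated transcript, with the median (line) and middle 50% (band) of protein-coding genes in 20 bins. The line is flat near 0 in ADPKD against WT, where *C4b*, *C3*, *Cfi*, *Serping1* and *C2* lie above the band, and climbs from left to right in ADPKD+MMPP against ADPKD, where *C2* and *Serping1* lie on or close to it.

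*C3* rose from 89.7 and 59.7 FPKM to 226 and 234, a mean of 230.0 ± 5.11 (SD, n = 2) and 3.08 times the ADPKD mean. The log2 fold change was 1.64 (SE 0.54; adjusted p = 0.0334 in limma), and 1.44 after centring by exon share. This call was lost when libraries were scaled to a common FPKM sum (1.33) or quantile normalized (1.31), without the filter on low values, without ADPKD replicate 2 (1.35), and without ADPKD+MMPP replicate 1 (1.66) or 2 (1.62). *C4b* rose from 13.3 and 11.0 FPKM to 43.0 and 41.4, with a log2 fold change of 1.72 (adjusted p = 0.000124 in limma) that stood at 0.88 after centring. *Cfi* rose from 13.2 and 8.99 FPKM to 46.0 and 53.4, with a log2 fold change of 2.09 (adjusted p = 0.000315 in limma) and a centred value of 1.6. All 3 genes were above both ADPKD libraries in both ADPKD+MMPP libraries, and all 3 stayed above genes of like structure. Against WT, their log2 fold changes were 4.35, 5.22 and 4.71.

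*C1ra* stood at 23.6 and 22.3 FPKM after MMPP, above 16.3 and 12.1 in ADPKD. Its log2 fold change of 0.67 (adjusted p = 0.0107 in limma) became -0.49 after centring, was 0.38 and not called with libraries scaled to a common FPKM sum, and was 0.47 and under the fold threshold without ADPKD replicate 2. *C1s1* fell from 24.8 and 28.9 FPKM to 0.568 and 1.03, or from 2562 and 2895 reads to 21 and 35. This was a log2 fold change of -3.96 (adjusted p = 2.6e-05 in limma), and -1.85 after centring, the lowest of the members on both scales. The ratio of *C1s1* to *C1ra*, which lie close together on chromosome 6, dropped to 0.0240 and 0.0461. An antisense gene, *Gm16567*, overlaps 18.4% of the exon bases of *C1s1*, and the sources used here do not say whether reads were counted by strand.

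*C2* fell from 2.84 and 1.90 FPKM to 0.350 and 0.355, from 16 and 15 reads, with a log2 fold change of -1.30 (adjusted p = 0.000709 in limma). *Serping1* fell from 81.8 and 117 FPKM to 50.6 and 46.4, with a log2 fold change of -1.0 (adjusted p = 0.00441 in limma). Neither direction held after centring, where the values were 0.30 for *C2* and 0.23 for *Serping1*, both short of the call. The FPKM of *C2* after MMPP lay near the lower limit of log2(FPKM + 1), so centring left it little room for a fall. *Cd55* stood at 6.35 and 4.80 FPKM after MMPP against 5.18 and 4.67 before, and these values overlapped. Its log2 fold change was 0.14 (95% interval -0.34 to 0.63, adjusted p = 0.530 in limma). It was called higher with quantile normalization, at 0.67, and with centring, at 1.14. *Cfb* gave 4 and 2 reads in the ADPKD+MMPP libraries, at or near the 3 reads taken as the floor of a library, and no fold is given for it.

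In ADPKD+MMPP against WT, 5 of the 8 tested genes were called higher (*C3*, *C4b*, *Cfi*, *C1ra* and *Serping1*) and 2 lower (*C1s1* and *Cd55*), where 73.9% of all tested genes were called, 30.1% higher and 43.8% lower. *Serping1* was at 0.73 (SE 0.19; adjusted p = 0.0145 in limma), but fell short with a common FPKM sum (0.35), with quantile normalization (0.49), without WT replicate 1 (0.66) and without ADPKD+MMPP replicate 1 (0.67), while after centring it was at 2.02. *Cd55* was at -0.77 (SE 0.20, adjusted p = 0.0120 in limma). It fell short with median-of-ratios scaling (-0.55), with quantile normalization (-0.36), at a fold of 2, and without WT replicate 2 (-0.57) or ADPKD+MMPP replicate 2 (-0.60). After centring *Cd55* was at 0.20. *C2*, at 0.15 (95% interval -0.26 to 0.55, adjusted p = 0.433 in limma), did not pass, but was called higher with quantile normalization (0.66) and after centring (1.76). It lay near the lower limit of log2(FPKM + 1) in both groups, so its centred value could only come out higher. *C1ra*, at 0.88, and *C1s1*, at -4.34, stood at -0.42 and -2.36 after centring.

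**Figure D3:**
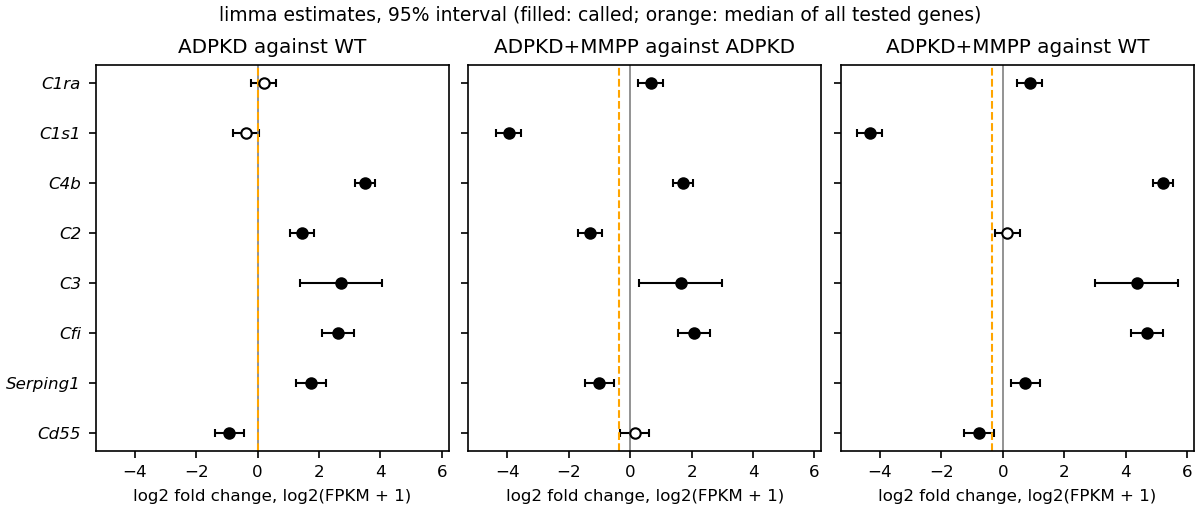
Log2 fold changes of the 8 tested members with their 95% intervals from limma on log2(FPKM + 1), one panel per comparison; filled points were called and the dashed line marks the median of all tested genes. *C4b*, *C3* and *Cfi* lie to the right in each panel, and *C1s1* lies at -3.96 and -4.34 where ADPKD+MMPP is compared.

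The balance among the 9 transcripts shifted with the group. *C3* made up 5.91% and 17.4% of their summed FPKM in WT, 36.0% and 24.4% in ADPKD, and 57.0% and 57.9% in ADPKD+MMPP. *C1s1* went from 38.9% and 31.8% to 9.94% and 11.8%, and then to 0.143% and 0.254%. The ratio of *C3* to *Cfi*, a component and the protease that breaks it down, was 6.91 and 17.2 in WT, 6.80 and 6.64 in ADPKD, and 4.92 and 4.37 in ADPKD+MMPP. *C3* was 0.610 and 1.63 times *Cd55* in WT, 17.3 and 12.8 times in ADPKD, and 35.6 and 48.7 times in ADPKD+MMPP. The shifts of *C3* against *C1s1* and *Cd55* after MMPP set a gene of high exon share against genes of low share. After centring by that share, ADPKD+MMPP against ADPKD gave 1.44 for *C3*, 1.14 for *Cd55* and -1.85 for *C1s1*.

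Profiles were compared with *C3* by the root mean square difference of centred log2(FPKM + 1) over the 6 libraries. Of 14861 other tested genes, *Cfi* was at rank 3 (0.46 log2 units) and *C4b* was at rank 21 (0.64), while *C1s1* was at rank 14672 (3.64). The 5 closest genes outside the members, among those with a group mean of at least 5 FPKM, were *Sprr1a* (0.23), *Il1f6* (0.36), *Clu* (0.49), *Mal2* (0.50) and *Galnt3* (0.52). *Sprr1a*, a cornified envelope gene of squamous epithelia, went from 12.5 and 24.6 FPKM in WT to 144.9 and 105.8 in ADPKD and 389 and 359 in ADPKD+MMPP. *Il1f6*, which encodes the cytokine IL-36 alpha, went from 0.0741 and 0.805 FPKM to 9.04 and 9.40, and to 36.1 and 35.9. *C4b* and *Il1f6* were under 1 FPKM in both WT libraries, and *Cfi* in 1 of them. These genes had to be higher in other groups to be ranked at all. The profiles were not centred by exon share, so the split by gene structure after MMPP enters the likeness and the ranks. After such centring, *Sprr1a* was at 0.43 in ADPKD+MMPP against ADPKD and was no longer called. On that scale *Il1f6* was at 2.85, *Clu* at 0.82, *Mal2* at 1.06 and *Galnt3* at 1.59.

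Near-identical copies could take or lend reads for some members. Of windows of 100 bases in the longest *C1ra* transcript, 34.5% were shared with *C1rb*, as were 16.5% of *C4b* windows with *C4a*, 7.90% of *C1s1* windows with *C1s2* and 6.86% of *Cd55* windows with *Cd55b*. *C1rb*, *C1s2* and *Cd55b* were at or under 0.48 FPKM in all libraries. *C4a* stood at 0.954 and 0.947 FPKM in WT, 0.638 and 0.940 in ADPKD, and 0.0819 and 0.177 in ADPKD+MMPP. Its ADPKD values were no higher than its WT values, and *C4b* was 0.187 and 0.144 times *C4a* in WT and 20.8 and 11.7 times in ADPKD.

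The rest of the pathway was followed through 50 further complement genes, of which 49 were in the files and 22 reached the test level. In ADPKD against WT, 15 of the 22 were called higher and 2 lower, where 14.2% of all tested genes were called higher and 12.5% lower. Their median was 1.18 on the log2 scale, against 0.03 over all tested genes. Both *Masp1* (1.22 and 1.76 FPKM in ADPKD) and *Itgam* (1.15 and 2.92) passed the filter only through the ADPKD libraries. *C7* and *Itgax*, also under 1 FPKM in both WT libraries, passed only through the ADPKD and ADPKD+MMPP libraries. Genes with such patterns had to differ to be tested, so the calls of these genes lend the count no weight. Of the initiating C1q chains, *C1qa* went from 14.3 and 11.6 FPKM in WT to 115.2 and 141 in ADPKD, a log2 fold change of 3.21 (adjusted p = 0.00186 in limma). *C1qb* and *C1qc* rose by 3.28 and 3.50 on the same scale. C1q is made chiefly by macrophages, and macrophage markers rose in the same libraries; this link was not tested. Of 6 tested initiation genes 5 were higher, *Masp1* included. *Colec12*, at 0.61, lost its call without WT replicate 1 (0.38) or ADPKD replicate 2 (0.55), with a common FPKM sum (0.54), with median-of-ratios scaling (0.55), after centring (0.58) and by adjusted p (0.0570 in limma). *C1rl* was at -0.59 and did not pass, but was called lower without ADPKD replicate 1 (-0.99), with the replicate number as a block (-0.59), with quantile normalization (-0.61) and after centring (-0.73).

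Properdin (*Cfp*), which stabilizes the alternative enzyme, went from 2.69 and 3.07 FPKM to 6.51 and 10.5, a log2 fold change of 1.26 (adjusted p = 0.0124 in limma). Of the terminal components that build the membrane pore, *C7* went from 0.0978 and 0.121 FPKM to 6.97 and 8.43, a 70.5-fold difference between means and a log2 fold change of 2.97 (adjusted p = 0.00158 in limma). The other tested gene of this group did not pass. Among the fluid-phase regulators, clusterin (*Clu*) went from 144 and 202 FPKM to 849 and 841, a log2 fold change of 2.30 (adjusted p = 0.00302 in limma), while *Cpn1*, a subunit of the carboxypeptidase that trims anaphylatoxins, was at 0.61 and did not pass, but was called at 1.20 without ADPKD replicate 2.

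Among the membrane regulators, none of the 4 tested was higher and 2 were lower, the direction of *Cd55*. The shares over all tested genes were 14.2% higher and 12.5% lower. *Cd59a*, which blocks assembly of the membrane pore, went from 57.6 and 74.2 FPKM to 30 and 27.7, a log2 fold change of -1.16 (adjusted p = 0.00784 in limma). Its paralog *Cd59b* was at -1.13 (adjusted p = 0.0490 in limma), a call lost without WT replicate 1 (-1.17) or WT replicate 2 (-1.09). *Cr1l* (Crry), a mouse inhibitor of C3 cleavage, was at -0.48 and under the fold threshold, and *Susd4* was at 0.47, called higher at 0.61 without WT replicate 1. All 6 tested receptor genes were higher, with *Itgam* and *Itgax* subject to the limit of the filter noted above. They included the anaphylatoxin receptors *C3ar1* (2.24) and *C5ar1* (2.20), the integrins *Itgb2* (1.99) and *Itgax* (1.10), and *Cd93* (0.66), the last lost without WT replicate 2 (0.56) or ADPKD replicate 2 (0.47), with a common FPKM sum (0.57) and after centring (0.51). The integrins and anaphylatoxin receptors among them are borne mainly by myeloid cells.

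**Figure D4:**
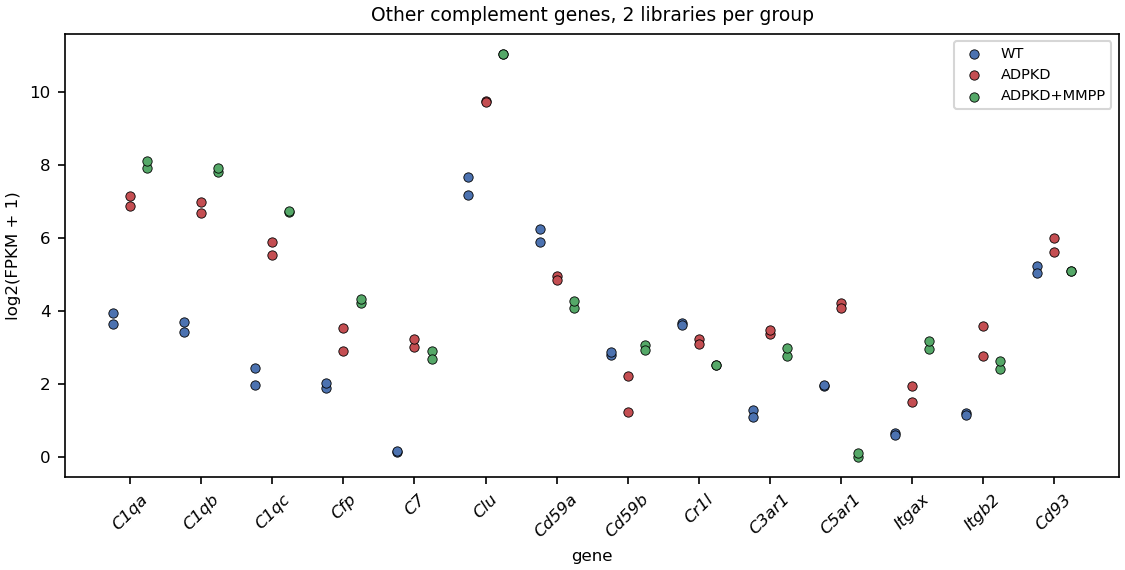
log2(FPKM + 1) in each of the 6 libraries for 14 further complement genes ordered by role, 2 points per group. WT (blue) is lowest for the C1q chains, *Cfp*, *C7*, *Clu*, *C3ar1*, *Itgax* and *Itgb2*, and highest for *Cd59a* and *Cr1l*, while *C5ar1* is near 0 in ADPKD+MMPP alone.

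In ADPKD+MMPP against ADPKD, 10 of these 22 genes were called higher and 7 lower, near the 70.9% called among all tested genes. The C1q chains, with 88.7% to 100% of exon bases in 1 transcript, were between 1.0 and 1.03, and at -0.16, -0.13 and -0.10 after centring. *Clu* (74.2% in 1 transcript) went from 849 and 841 to 2094 and 2086 FPKM, a log2 fold change of 1.31 that was 0.27 and not called with quantile normalization. *C5ar1*, with 3.54% in 1 transcript, went from 1486 and 1311 reads to 0 and 2, at or under the floor. *C7* and *C3ar1*, each a single-transcript gene, were at -0.33 and -0.54 and were not called, although *C3ar1* was called lower without ADPKD replicate 1 (-0.60), without ADPKD+MMPP replicate 2 (-0.65) and with a pseudocount of 0.1 (-0.61). With a common FPKM sum both were called lower, at -0.60 and -0.81. They were at -1.49 and -1.70 after centring and then called.

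Transcripts of transcription factors and cytokine receptors known to act on complement genes showed no common rise in ADPKD. The activity of these proteins was not measured, and their part in the complement results was not tested. Of 22 tested, 2 were called higher in ADPKD against WT (*Nfkb1* and *Ifngr2*) and 5 lower, around a median of -0.15 on the log2 scale. Among all tested genes, 14.2% were called higher and 12.5% lower in this comparison. *Cebpb*, a C/EBP factor of acute-phase transcription, went from 297 and 266 FPKM to 152 and 156, a log2 fold change of -0.86 (adjusted p = 0.00687 in limma). *Irf1*, an interferon-induced factor, went from 151 and 134 to 85.9 and 53.0, and *Rela*, the p65 subunit of NF-kB, from 112 and 108 to 124 and 129, at 0.20 and not called. After MMPP 18 of the 22 were called lower and 2 higher, but 13 of the 22 had under 45% of exon bases in 1 transcript, a class in which 71.7% of genes were called lower, and 43.0% of all tested genes were called lower. *Cebpb* returned to 322 and 325 FPKM, a log2 fold change of 1.07, but this single-transcript gene was at -0.09 after centring.

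Of 8 tested acute-phase genes, which share inducers with *C3*, 6 were called higher in ADPKD against WT and none lower. Among all tested genes, 14.2% were called higher and 12.5% lower. The median of the 8 was 3.05 on the log2 scale. However, 4 of the 8 were under 1 FPKM in both WT libraries, and a further gene reached that level in only 1 of them. Genes with such patterns could be tested only because other groups stood higher. Their calls lend the count no weight, and they also enter the median. *Lcn2*, a secreted marker of tubule injury, went from 8.94 and 14.2 FPKM in WT to 257 and 610 in ADPKD and 327 and 314 in ADPKD+MMPP. *Serpina3n*, a protease inhibitor, stood at 0.856 and 0.501 FPKM in WT, 11.8 and 77.8 in ADPKD, and 20.5 and 19.9 in ADPKD+MMPP. For both genes the ADPKD values enclosed those of ADPKD+MMPP. *Lcn2* and *Serpina3n* were higher in ADPKD replicate 2, as *Serping1* was, while *C3*, *C4b*, *C2* and *Cfi* were higher in ADPKD replicate 1. *Cp* (ceruloplasmin) was at 0.31 and did not pass. After MMPP, 27.9% of all tested genes were called higher and 43.0% lower than in ADPKD. In ADPKD+MMPP against ADPKD none of the 8 was called higher and 2 were lower, but *Serpina3n* was called higher without ADPKD replicate 2 (0.72) and lower without ADPKD replicate 1 (-1.89), and *Lcn2* lower without ADPKD replicate 1 (-0.93).

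The member genes lie, in GRCm38 (mm10), at chr6:124512405-124523443 for *C1ra* (plus strand), chr6:124530345-124542359 for *C1s1*, chr17:34728380-34743882 for *C4b*, chr17:34862604-34898265 for *C2*, chr17:34856374-34862518 for *Cfb* and chr17:57203970-57228136 for *C3*, all of these but *C1ra* on the minus strand. *Cfi* lies at chr3:129835884-129875332 on the plus strand, *Serping1* at chr2:84765387-84775444 and *Cd55* at chr1:130439027-130462744, both on the minus strand. *C2*, *Cfb* and *C4b* lie close together in the major histocompatibility complex, and their 3 patterns of FPKM differed: *C4b* rose in both steps, *C2* was high in ADPKD alone, and *Cfb* was above the WT level in a single ADPKD library. After centring by exon share, *C2* was at 0.30 in ADPKD+MMPP against ADPKD and at 1.76 in ADPKD+MMPP against WT. With 16 and 15 reads after MMPP, *C2* lay near the lower limit of log2(FPKM + 1), which bounds these centred values from below. They thus do not show whether *C2* fell beside genes of like structure.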

How the data were processed

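Polyadenylated RNA of DBA-positive cells was sequenced for WT mice, ADPKD mice and ADPKD mice given MMPP (2 libraries per group). Per the methods and the submitters' processing notes, the authors aligned reads to mm10 with HISAT2 2.1.0, counted them with featureCounts 1.6.0 and deposited FPKM for each library; the annotation release and the way FPKM was computed are not given in the sources used here.

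Of 55367 symbols, 53186 were tied to a single GENCODE vM21 gene, the source of positions, exon lengths and the share of exon bases covered by 1 transcript alone. FPKM times exon length fell on whole reads for 98.2% to 99.0% of low values (up to 30 reads, within 0.05 of a whole number), which gave the read numbers and depths. Reads served as a description only. A floor of 3 reads and these read numbers cover counting error only, and 2 libraries per group limit every mean.

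The 14862 genes at 1 FPKM or more in 2 libraries or more were tested on log2(FPKM + 1) in a single limma 3.58.1 fit (R 4.3.3) of all 6 libraries. A call was a fold change of at least 1.5 with two-sided unadjusted P under 0.05, the thresholds of the study, and p-values were adjusted by Benjamini-Hochberg over all tested genes. The fit was tested on simulated data. Alternatives covered the pseudocount, filter, scaling, variance model, groups in the fit, call rule, replicate block, each library left out, and centring by exon share.

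The members and all gene lists were chosen with earlier results of these data known. All 9 members were named, and further complement genes were named where a group mean reached 5 FPKM, apart from 1 that is counted but not reported here. Of transcription regulators and acute-phase genes the 3 with the highest group mean were named. *Nfkb1*, *Ifngr2*, *Masp1* and *Itgam* were named after their values were seen. Lymphocyte, endothelial, podocyte, intercalated, and thick limb and distal tubule markers were also summed.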

Additional observations from a re-analysis of the deposited data

How the results depend on the processing

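The count of members called stayed within 1.5 times its value of 6, 7 and 7 (ADPKD against WT, ADPKD+MMPP against ADPKD, and ADPKD+MMPP against WT) in each alternative but 1: at a fold of at least 2, 4 members were called in ADPKD+MMPP against WT. With each library left out in turn these counts ranged from 6 to 6, 5 to 7 and 6 to 7, and those of the other complement genes from 15 to 18, 16 to 20 and 17 to 18. Same-numbered libraries deviated together with r = 0.129, 0.0137 and -0.00796 over 14862 genes in the 3 comparisons, and the labels share only a number; with the replicate number as a block, 6, 7 and 7 members and 18, 18 and 17 other complement genes were called. Of the 151 values of the members under alternatives in each comparison, 150, 137 and 135 kept their direction and side of the threshold. Directions turned under centring by exon share, where ADPKD+MMPP against ADPKD gave log2 fold changes of 0.30 for *C2*, -0.49 for *C1ra*, 0.23 for *Serping1*, -0.16 for *C1qa*, -0.13 for *C1qb*, -0.10 for *C1qc*, 1.38 for *Cd59a*, 1.26 for *Itgb2*, -0.0926 for *Cebpb* and 0.21 for *Rela*, and ADPKD+MMPP against WT gave -0.42 for *C1ra*, 0.20 for *Cd55*, 0.0940 for *Cd59a*, 0.0827 for *C5ar1*, -1.10 for *Cebpb* and 0.34 for *Rela*. Without ADPKD replicate 2, *Serpina3n* was at 0.72 in ADPKD+MMPP against ADPKD, and without ADPKD replicate 1 at -1.89. The cause of these turns was not tested. Depth limits the low values: *Cfb* and *C5ar1* had at most 4 reads in the ADPKD+MMPP libraries. For *C2* and *C5ar1*, the lower limit of log2(FPKM + 1) also bounds the centred values from below, so these do not show that a fall was absent.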

Other observations

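Other cell type lists had these sums over WT, ADPKD and ADPKD+MMPP libraries. Endothelial markers summed to 1005 to 1176, 613 to 616 and 346 to 376 FPKM, and podocyte markers to 969 to 1328, 130 to 243 and 122 to 127. Intercalated cell markers summed to 353 to 369, 36.9 to 95.1 and 264 to 271, and principal cell markers to 2097 to 2798, 958 to 2507 and 5438 to 5459. Thick limb and distal tubule markers summed to 582 to 1470, 186 to 622 and 246 (both libraries) FPKM. Lymphocyte markers were at most 5.58 FPKM in sum in any library.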
